A study of Mus musculus with 5 samples.

Results

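The Ube2 genes encode the E2 ubiquitin-conjugating enzymes, and they were followed here through the step from meiotic to haploid male germ cells of the mouse. They were taken as every row of the deposited table whose gene symbol begins with Ube2, leaving out rows with several symbols and pseudogene names. The rule found 37 of the 56324 rows. Messenger RNA was sequenced from spermatocytes (2 samples), the cells that carry out meiosis, and from spermatids (3 samples), the haploid cells that reshape themselves into sperm. All came from male C57Bl/6 mice aged 12 weeks, with no mutation or treatment named in the labels, and both fractions were separated by sedimentation at unit gravity (Sta-put). The labels do not say whether samples came from separate animals or pools, so a p-value here covers the spread among the samples alone, and that spread may be technical. Of the 37 rows, 36 encode E2 enzymes or E2-like variants, and Ube2cbp encodes a protein that binds an E2.

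Ubiquitin is attached to proteins in a relay. An E1 enzyme activates ubiquitin, an E2 enzyme carries it on a cysteine, and an E3 ligase brings the E2 to the substrate. The choice of E2 largely sets which kind of ubiquitin chain is built, and some E2s carry the relatives SUMO, NEDD8 or ISG15 in place of ubiquitin. In the testis, ubiquitination marks chromatin in meiosis and during histone removal, and male mice that lack Ube2b or Ube2j1 are known to be infertile.

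Each deposited value is taken as a gene's read count after division by its library's size factor, and is called a normalized count below. Differences were tested with limma on log2(value + 1) over all genes with a mean of at least 10, with Benjamini-Hochberg adjustment and a threshold of 0.05. Fold changes are on that log2 scale, on which low genes appear to change less than they do. Each value was a whole multiple of its library's smallest value, within 0.001 of a step, and these steps summed to 52784231 to 84361908 per library. Spermatid markers were higher in spermatids for 13 of 13 genes and spermatocyte markers lower for 8 of 10. The spermatocyte libraries also held Sertoli cell markers, whose summed normalized counts over 14 genes were 78297 and 102852, against 3002 to 4271 in spermatids. Leydig cell markers (7 genes) summed to 2855 and 3401 in spermatocytes, against 138 to 346 in spermatids, and markers of myoid, endothelial, macrophage and blood cells to 518 and 615 in spermatocytes and 2403 to 3134 in spermatids (11 genes). Spermatogonia markers (10 genes) summed to 5493 and 5749 in spermatocytes, against 2279 to 2902 in spermatids, with 4 genes higher and 3 lower in spermatids. Most of the spermatocyte sum was a single gene, Id4, at 3751 and 3650 in spermatocytes, against 350, 320 and 342 in spermatids. No marker in these lists was at 0 in every library. Fewer cells of a type and less RNA per cell cannot be told apart in such samples.

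The promoters of 4 genes are shown first because these genes carry the main contrasts below. Ube2a and Ube2b are paralogs of yeast RAD6, of which Ube2a differed strongly between the cell types. Ube2dnl1 and Ube2dnl2 are neighbours on the X chromosome, 1639 bases apart in the table, and had the largest fold changes of the family. Each run covers the 250 bases before the RefSeq start site (build GRCm38.p6, 5′ to 3′ on the gene's strand), and capitals mark CG dinucleotides. The windows lie at chrX:36874045-36874294 (+) for Ube2a, chr11:52000492-52000741 (-) for Ube2b, chrX:114904762-114905011 (+) for Ube2dnl1 and chrX:114907332-114907581 (+) for Ube2dnl2.
Ube2a: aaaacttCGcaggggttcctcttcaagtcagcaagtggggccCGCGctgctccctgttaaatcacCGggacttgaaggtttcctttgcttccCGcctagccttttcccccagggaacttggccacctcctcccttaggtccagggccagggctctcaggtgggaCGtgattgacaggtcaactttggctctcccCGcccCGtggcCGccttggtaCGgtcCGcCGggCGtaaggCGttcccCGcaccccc
Ube2b: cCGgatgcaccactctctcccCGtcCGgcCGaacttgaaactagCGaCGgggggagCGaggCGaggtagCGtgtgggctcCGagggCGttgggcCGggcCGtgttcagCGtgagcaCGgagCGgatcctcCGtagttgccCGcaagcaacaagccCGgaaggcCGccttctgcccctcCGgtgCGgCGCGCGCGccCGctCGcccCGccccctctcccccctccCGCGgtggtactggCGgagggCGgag
Ube2dnl1: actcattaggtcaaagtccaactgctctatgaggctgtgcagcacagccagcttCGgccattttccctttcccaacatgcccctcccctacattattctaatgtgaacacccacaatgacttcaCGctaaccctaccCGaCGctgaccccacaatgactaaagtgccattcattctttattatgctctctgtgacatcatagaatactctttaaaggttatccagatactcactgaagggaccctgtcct
Ube2dnl2: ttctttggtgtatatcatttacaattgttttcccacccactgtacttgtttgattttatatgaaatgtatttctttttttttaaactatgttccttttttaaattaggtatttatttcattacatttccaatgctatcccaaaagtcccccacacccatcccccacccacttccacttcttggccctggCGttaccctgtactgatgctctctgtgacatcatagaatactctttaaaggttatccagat

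The 4 windows differ in their CG content. Ube2b held 33 CG dinucleotides and Ube2a 15, whereas Ube2dnl1 held 4 and Ube2dnl2 held 1. A window was matched by symbol for 30 of the 37 genes, with a median of 23, against a median of 10 over 21262 windows of 17491 protein-coding genes. Each Ube2 gene was given only the window nearest the start of its row. The protein-coding windows hold every start site listed, so the 2 sets are not fully alike. Fewer than 5 were found in 6.67% of the family's windows, which are those of Ube2dnl1 and Ube2dnl2, and in 33.7% of the protein-coding windows. Within these windows the neighbours share an exact run of 46 bases, printed here because both copies keep it before the RefSeq start site, with capitals marking TGACATCA.
Shared run: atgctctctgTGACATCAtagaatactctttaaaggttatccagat
It ends 23 bases before the annotated start of Ube2dnl1 (chrX:114904943-114904988) and at the base before that of Ube2dnl2 (chrX:114907536-114907581). The Ube2dnl2 window stops there, so the length of 46 is a lower limit. The deposited row of Ube2dnl2 begins at 114907581, the last base of the run. The marked letters differ by 1 base from the cyclic AMP response element TGACGTCA, the palindrome bound by CREM, a transcription factor of spermatids. TGACATCA was searched on both strands after the run had been seen, and it is in 2.86% of protein-coding windows and in those of Ube2dnl1, Ube2dnl2, Ube2h and Ube2u. TGACGTCA itself is in 1.92% of protein-coding windows and in 1 of the 30 here, that of Ube2h. Its part TGACG, which it overlaps, is in 20.2% of protein-coding windows and 7 of the 30, those of Ube2d2b, Ube2h, Ube2j1, Ube2j2, Ube2n, Ube2s and Ube2v1. These matches are a description of the letters and show no binding.

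The family as a whole held a similar share of each library while its makeup shifted. Its summed normalized count was 0.295% and 0.296% of the total in the spermatocyte samples and 0.312%, 0.289% and 0.284% in the spermatid samples, so the groups overlapped. Of the 37 genes, 36 passed the filter on low values, and 19 of them were higher and 7 lower in spermatids as deposited, while 10 were not past the threshold. Of all 28370 genes tested, 40.6% were called higher and 36.5% lower, which is 77.1% in either direction, against 26 of 36 Ube2 genes (72.2%). Spermatid and spermatocyte values stood apart, with no overlap, for 29 of the 36 genes (80.6%) and for 85.8% of all genes. With libraries rescaled to equal totals, 10 Ube2 genes were higher and 17 lower, so 37.0% of the family's calls were higher, beside 36.8% of the calls over all genes. As deposited these shares were 73.1% and 52.6%, so the balance turned with the scaling for all genes as well as for the family. The median log2 fold change of the 36 genes was 0.30 as deposited, against 0.07 over all genes, and -0.35 with equal totals, against -0.65 over all genes. Relative to the median of all genes, 23 of 36 lay above it as deposited and 24 of 36 with equal totals. Differences of at least 2-fold toward spermatids were called for 10 genes (27.8% of the 36), against 33.2% of all genes tested. Toward spermatocytes they were called for 3 genes (8.33% of the 36), against 28.7% of all genes tested. The 3 genes at least 16-fold higher in spermatids, Ube2a, Ube2dnl1 and Ube2dnl2, made up 8.33% of the 36, against 14.4% of all genes. Ube2ql1 was under the filter with normalized counts of 3.23 and 4.02 in spermatocytes, against 0, 3.96 and 2.10 in spermatids.

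**Figure D1:**
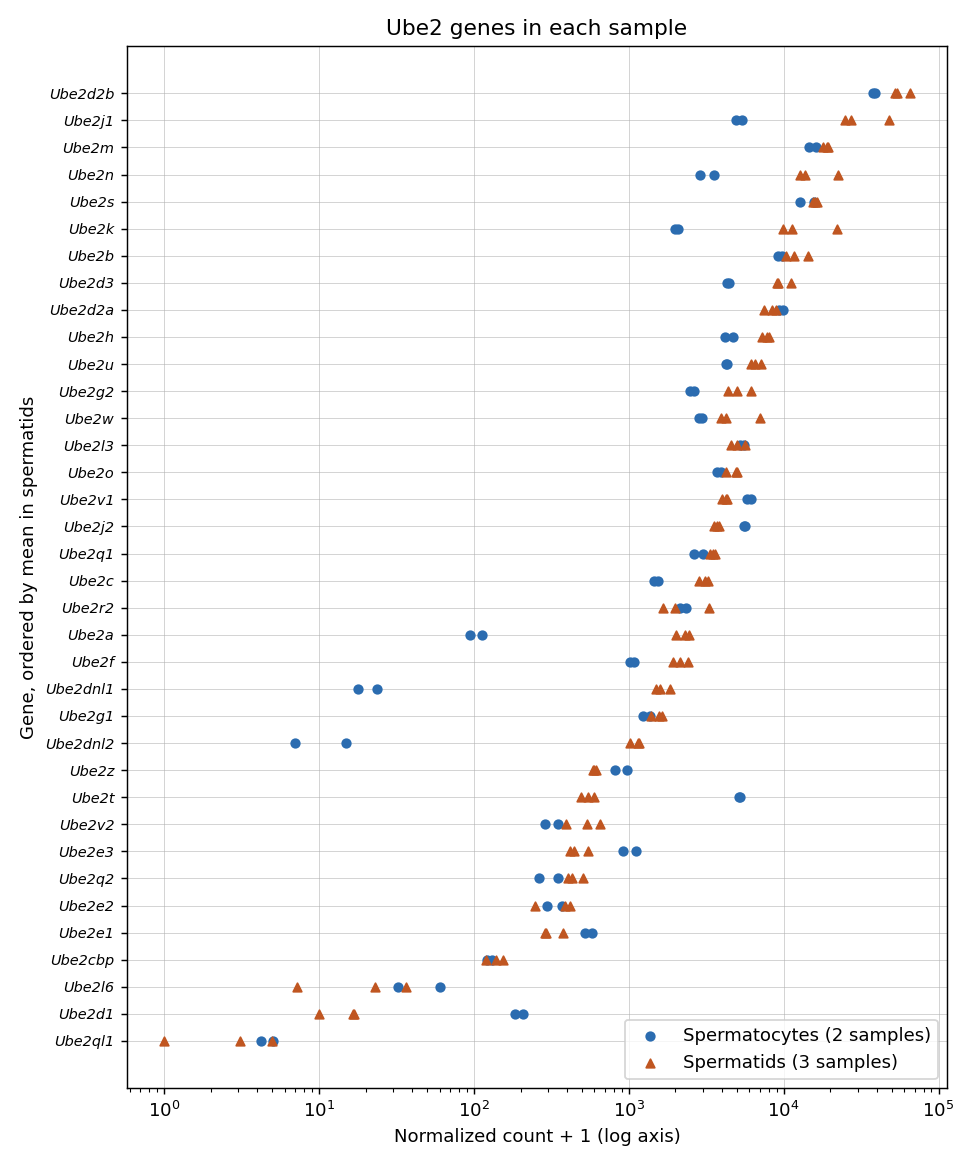
Normalized count plus 1 (log axis) of 36 of the 37 Ube2 genes in every sample, with circles for the 2 spermatocyte and triangles for the 3 spermatid samples, ordered by the spermatid mean. Ube2d2b is at the top in both cell types, and Ube2a, Ube2dnl1, Ube2dnl2, Ube2t and Ube2d1 show the widest gaps between the groups.

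**Figure D2:**
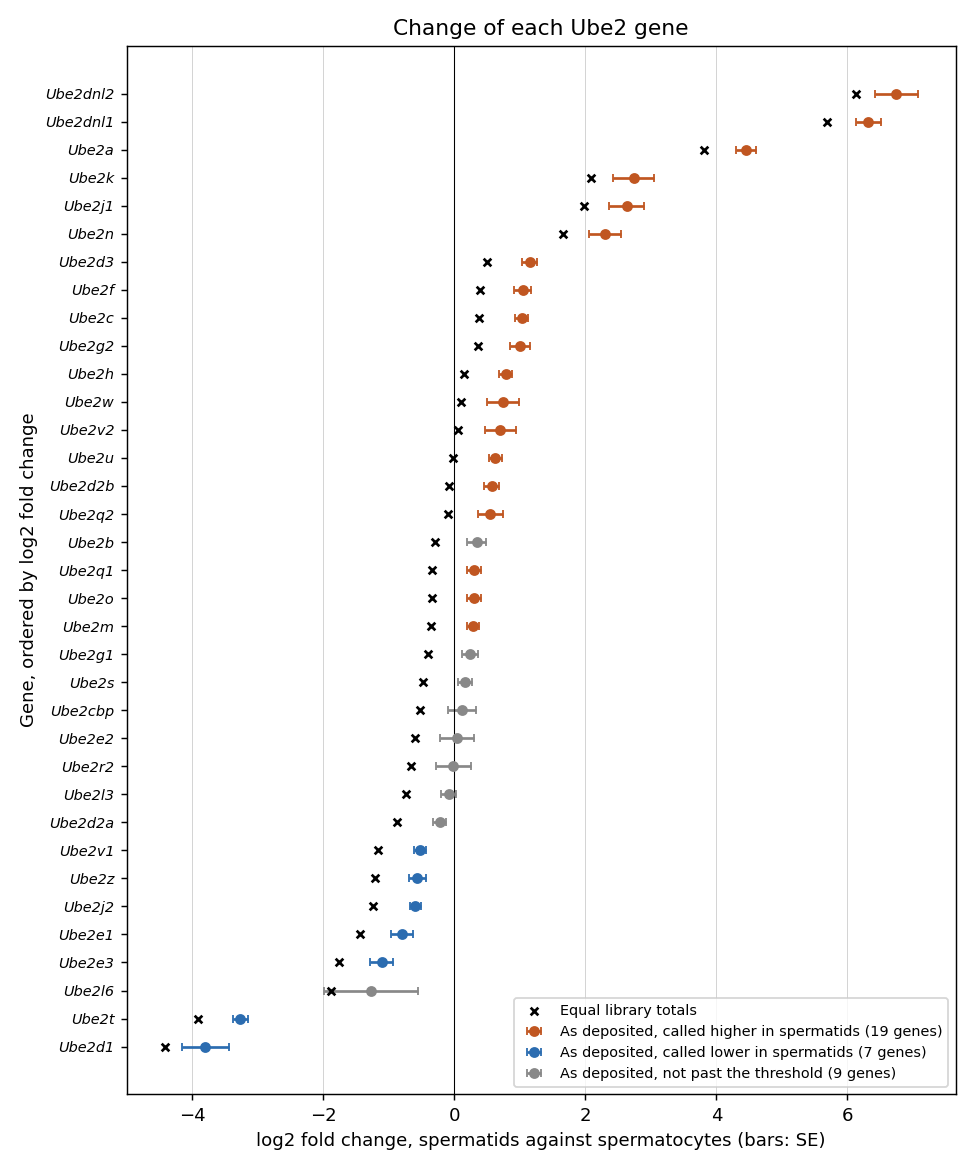
Log2 fold change (spermatids against spermatocytes) with its standard error for 35 of the 36 tested Ube2 genes, coloured by call, and crosses for the value with equal library totals. The crosses lie to the left of the deposited values, and genes with small changes, such as Ube2m at 0.28, move across 0.

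Ube2a and Ube2b, the RAD6 homologues that ubiquitinate histones and the sliding clamp PCNA, differed in the size of their change between the cell types. The X-linked Ube2a was at 111 and 93.2 normalized counts in spermatocytes and at 2288, 2464 and 2017 in spermatids. All 3 spermatid samples lay far above both spermatocyte samples. Its log2 fold change was 4.45 ± 0.15 (SE, limma adjusted p = 8.6e-07), or 21.9-fold, and 3.81 with equal totals. Of 828 X-linked genes tested, 63% were called higher in spermatids and their median log2 fold change was 2.32, so Ube2a moved in the direction of most genes of its chromosome. Autosomal Ube2b, the more abundant of the pair, was at 9134 and 9823 in spermatocytes and at 14426, 11615 and 10365 in spermatids. Its groups did not overlap, with a log2 fold change of 0.34 ± 0.15 (SE, limma adjusted p = 0.067). That value passed the threshold with TMM factors (0.36, limma adjusted p = 0.046) and without spermatid replicate 3 (0.45, limma adjusted p = 0.030), and it turned to -0.30 with equal totals (limma adjusted p = 0.032). Within a library, where the scaling cancels, the log2 ratio of Ube2a to Ube2b was -6.36 and -6.72 in spermatocytes and -2.66, -2.24 and -2.36 in spermatids. The ratio was thus 17.4-fold higher in spermatids, although Ube2b stayed the more abundant in every library.

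The UBCH5 and UBE2E enzymes, which work with many different ligases, made up the largest share of the family and held its extremes. Ube2w, which belongs to neither, was counted with them. Of these 10 genes, 5 were higher in spermatids, 3 lower and 2 not past the threshold as deposited. With equal totals 3 were higher and 5 lower. Of all genes tested, 40.6% were higher and 36.5% lower as deposited. With equal totals 36.8% of the calls over all genes were higher, against 52.6% as deposited. Ube2dnl1 was at 22.6 and 16.8 normalized counts in spermatocytes and at 1488, 1840.5 and 1596 in spermatids, a log2 fold change of 6.32 ± 0.19 (SE, limma adjusted p = 6.7e-07). Ube2dnl2 was at 14.0 and 6.03 in spermatocytes and at 1146, 1159 and 1010.3 in spermatids, a log2 fold change of 6.75 ± 0.33 (SE, limma adjusted p = 3.9e-06). Both genes were low in each spermatocyte library and high in each spermatid library, by 79.9-fold and 107-fold. Their spermatocyte levels were 1.20% and 0.907% of their spermatid levels. The same percentage was 1.27% to 2.58% for the 13 spermatid markers, and whether these low levels came from spermatocytes was not tested. In the GENCODE transcripts, 11.7% of the runs of 50 bases of each of these copies also occur in the other. How reads that match both were counted is not given in the sources used here, so the division of reads between them is uncertain.

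Ube2d2b, a copy of the UBCH5 gene Ube2d2a that GENCODE annotates with 1 exon, was the most abundant member per length in both cell types. It stood at 38735 and 37583 normalized counts in spermatocytes, against 65097, 53777 and 51989 in spermatids. All spermatid values lay above the spermatocyte values, with a log2 fold change of 0.57 ± 0.12 (SE, limma adjusted p = 0.0036) that turned to -0.08 with equal totals (limma adjusted p = 0.37). Scaled per kilobase of the longest coding transcript, it supplied 26.8% and 27.7% of the family's summed level in spermatocytes and 28.8%, 28.1% and 28.7% in spermatids. Its row overlaps that of Evi5. It shares no run of 50 bases with Ube2d2a, which was at 9954 and 9343 in spermatocytes and at 7515, 8914 and 8354 in spermatids. The groups of Ube2d2a did not overlap, with a log2 fold change of -0.23 ± 0.10 (SE, limma adjusted p = 0.080) that passed the threshold with equal totals (-0.87, limma adjusted p = 0.0013).

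Ube2d3, another UBCH5 gene, was at 4439.96 and 4296 in spermatocytes and at 11069.8, 9130.03 and 9042 in spermatids, a log2 fold change of 1.15 ± 0.11 (SE, limma adjusted p = 1.1e-04), and its row overlaps those of Manba, 4930539J05Rik and Nfkb1. Ube2d1 went the opposite way, from 183 and 205 in spermatocytes to 15.5, 8.92 and 15.7 in spermatids, a log2 fold change of -3.80 ± 0.35 (SE, limma adjusted p = 7.5e-05). All 3 spermatid values of Ube2d1 lay far under both spermatocyte values. Its spermatid level was 6.89% of the spermatocyte level, and the same percentage was 2.01% to 19.1% for the 14 Sertoli markers. Of the 14 Sertoli markers, 13 were higher in the second spermatocyte sample than in the first, as was Ube2d1. The log2 ratio of the first to the second sample was -0.16 for Ube2d1, against a median of -0.45 for these markers. Among the other genes called lower, Ube2e3 (-0.28) and Ube2e1 (-0.14) were also higher in the second sample, and Ube2t, Ube2j2, Ube2z and Ube2v1 (0.02 to 0.26) were not. Among the genes called higher in spermatids, Ube2h (-0.16) was higher in the second sample too, and the others were not. The share of all genes higher in the second sample was not computed. The part of Sertoli cells in the levels of Ube2d1, Ube2e3 and Ube2e1 was not tested. Among the UBE2E genes, Ube2e3 fell from 912 and 1106 to 414, 544 and 443, a log2 fold change of -1.11 ± 0.17 (SE, limma adjusted p = 8.2e-04). Ube2e1 fell from 521 and 573 to 372, 292 and 286 (log2 fold change -0.80 ± 0.17, SE, limma adjusted p = 0.0045), and its row overlaps that of Nkiras1. Ube2e2 had overlapping groups, 367 and 296 against 414, 387 and 245 (limma adjusted p = 0.89). Rescaling to equal totals gave it a call toward spermatocytes (-0.60, limma adjusted p = 0.045). The log2 ratio of Ube2e2 to Ube2e3 was -1.31 and -1.90 in spermatocytes and 0, -0.49 and -0.85 in spermatids.

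Enzymes of protein quality control at the endoplasmic reticulum and of degradative chains included Ube2k and Ube2j1, the genes with the largest rises outside the X chromosome. Of 6 members, 3 were higher in spermatids, 1 lower and 2 not past the threshold as deposited, and 3 were higher and 3 lower with equal totals. Of all genes tested, 40.6% were higher and 36.5% lower as deposited. With equal totals 36.8% of the calls over all genes were higher, against 52.6% as deposited. Ube2j1, a membrane-anchored E2 of the endoplasmic reticulum, was at 5348 and 4937 normalized counts in spermatocytes and at 47734, 27205 and 24706 in spermatids. Its log2 fold change was 2.63 ± 0.27 (SE, limma adjusted p = 1.2e-04), or 6.18-fold. Ube2k, which builds degradative chains by itself, was at 2068 and 1981 in spermatocytes and at 21966, 11234 and 9949 in spermatids, a log2 fold change of 2.74 ± 0.32 (SE, limma adjusted p = 2.3e-04). Both genes were higher in every spermatid sample, and in both spermatid replicate 1 was the highest. Ube2g2, an E2 of protein degradation at the endoplasmic reticulum, rose from 2634 and 2478 to 6135, 4957 and 4394 (log2 fold change 1.00 ± 0.15, SE, limma adjusted p = 7.6e-04). Its row overlaps that of Mir1930.

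Ube2j2, the paralog of Ube2j1 at the same membrane, fell. It was at 5656 and 5506 in spermatocytes and at 3687, 3563 and 3847 in spermatids, a log2 fold change of -0.59 ± 0.09 (SE, limma adjusted p = 7.0e-04). The 2 paralogs were nearly equal in spermatocytes, with log2 ratios of Ube2j1 to Ube2j2 of -0.08 and -0.16, and stood at 3.70, 2.93 and 2.68 in spermatids, a ratio 9.33-fold higher. Ube2g1 was at 1235 and 1365 in spermatocytes and 1642, 1571 and 1391 in spermatids (limma adjusted p = 0.11), and Ube2r2, a CDC34-type E2, at 2345 and 2141 against 3296, 1982 and 1669 (limma adjusted p = 0.96). With equal totals Ube2g1 was called lower (-0.41, limma adjusted p = 0.020), as was Ube2r2 (-0.66, limma adjusted p = 0.023). Per kilobase, the 6 genes made up 6.76% and 6.85% of the family's summed level in spermatocytes and 17.4%, 12.7% and 12.2% in spermatids.

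**Figure D3:**
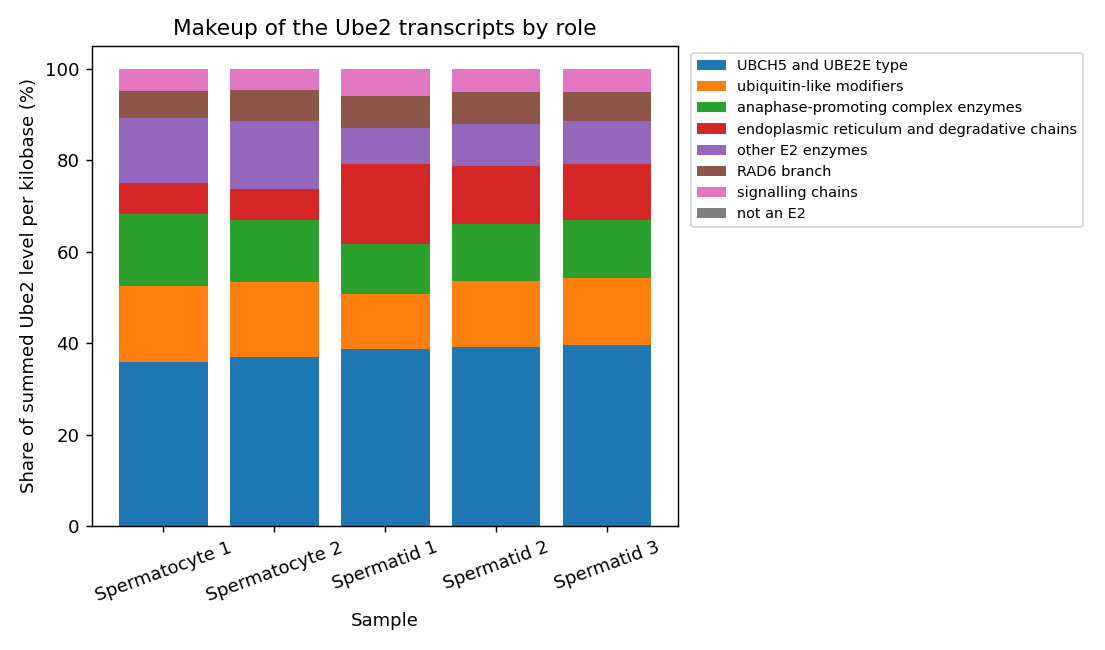
Stacked bars of the share (%) of each role in the summed Ube2 level per kilobase, for each of the 5 samples. Ube2w is counted with the UBCH5 and UBE2E enzymes. The band of endoplasmic reticulum and degradative-chain enzymes widens from 6.76% and 6.85% in the spermatocyte samples to between 12.2% and 17.4% in the spermatid samples. It is widest in spermatid replicate 1. The shares of Ube2j1, Ube2k and Ube2g2 grew, and those of Ube2j2, Ube2g1 and Ube2r2 shrank.

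The enzymes of non-degradative signalling chains include Ube2n and its catalytically inactive partners Ube2v1 and Ube2v2. Ube2n was at 3551 and 2883 normalized counts in spermatocytes and at 22290.1, 13778 and 12680.0 in spermatids, a log2 fold change of 2.30 ± 0.25 (SE, limma adjusted p = 1.5e-04). Its partner Ube2v1 fell from 6194 and 5837 to 4231, 4334 and 4013, a log2 fold change of -0.52 ± 0.09 (SE, limma adjusted p = 0.0015). The enzyme and its more abundant partner thus moved in opposite directions, and the groups did not overlap for either. Ube2v2 was low in both cell types, at 348 and 286 in spermatocytes and 647, 537 and 390 in spermatids (log2 fold change 0.70 ± 0.24, SE, limma adjusted p = 0.030). Its call ended with equal totals (limma adjusted p = 0.80), with no filter on low values (0.054), without spermatocyte replicate 1 (0.063) or 2 (0.18) and without spermatid replicate 1 (0.054) or 2 (0.082).

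The E2 pair of the anaphase-promoting complex, the ligase that ends metaphase, showed a rise in the enzyme that starts chains. Ube2c, which places the first ubiquitins, went from 1548 and 1455 normalized counts in spermatocytes to 3234, 3110.1 and 2845 in spermatids, a log2 fold change of 1.03 ± 0.10 (SE, limma adjusted p = 1.1e-04), and its row overlaps that of Tnnc2. Ube2s, which extends the chains, was the second most abundant member per length, at 15768 and 12711 against 16375, 15811 and 15403 (limma adjusted p = 0.22). Its groups overlapped, its row overlaps that of Rpl28, and equal totals gave a call toward spermatocytes (-0.48, limma adjusted p = 0.0047).

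Among the enzymes that carry ubiquitin relatives, the NEDD8 enzyme Ube2f rose from 1072 and 1019.9 normalized counts to 2417, 1932 and 2143, a log2 fold change of 1.04 ± 0.13 (SE, limma adjusted p = 2.6e-04). Ube2m, the other NEDD8 enzyme and a far more abundant transcript, was at 16224 and 14513 in spermatocytes and 19076, 19187 and 17848 in spermatids (log2 fold change 0.28 ± 0.09, SE, limma adjusted p = 0.025). Leaving out spermatocyte replicate 2 (limma adjusted p = 0.19) or spermatid replicate 2 (0.074) ended the call of Ube2m, and with equal totals it was called lower (-0.36, limma adjusted p = 0.011). Ube2l6, the E2 of ISG15, was low throughout, at 31.2 and 59.7 against 6.20, 35.7 and 22.01 (limma adjusted p = 0.14).

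Ube2t, the E2 of the Fanconi anemia pathway that repairs DNA crosslinks, had the largest fall after Ube2d1. It was at 5251 and 5169 normalized counts in spermatocytes and at 541, 592 and 494 in spermatids, a log2 fold change of -3.27 ± 0.12 (SE, limma adjusted p = 1.1e-06). The replicates of each group lay close together and the groups far apart. Per kilobase Ube2t went from 5.47% and 5.72% of the family's summed level in spermatocytes to 0.360%, 0.465% and 0.410% in spermatids, from the 5th to the 25th place of 37. Its spermatid level was 10.4% of its spermatocyte level, inside the range of the Sertoli markers given above, and the part of Sertoli cells in it was not tested. Its spermatocyte samples were nearly equal, with a log2 ratio of replicate 1 to 2 of 0.02, against a median of -0.45 for these markers.

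The genes of other roles are given next, with Ube2w, which was counted with the UBCH5 and UBE2E genes. Ube2u, an E2 known for expression in the testis, rose from 4302 and 4272 to 7154, 6525 and 6173 (log2 fold change 0.62 ± 0.10, SE, limma adjusted p = 9.2e-04), a value that turned to -0.02 with equal totals (limma adjusted p = 0.82). Ube2h rose from 4195 and 4702 to 7211, 8024 and 7783 (log2 fold change 0.79 ± 0.10, SE, limma adjusted p = 3.1e-04), and its call ended with equal totals (0.14, limma adjusted p = 0.40). Ube2w, which attaches ubiquitin to protein N termini, was at 2972 and 2841 against 7029.5, 3923 and 4228, a log2 fold change of 0.75 ± 0.24 (SE, limma adjusted p = 0.027). Its call ended with equal totals (limma adjusted p = 0.62), with no filter on low values (0.058) and without spermatocyte replicate 1 (0.10) or 2 (0.13). Ube2z, which receives ubiquitin from the E1 enzyme UBA6, fell from 966 and 808 to 595, 609.5 and 585 (log2 fold change -0.57 ± 0.13, SE, limma adjusted p = 0.0060). Leaving out spermatocyte replicate 1 ended that call (limma adjusted p = 0.059).

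Calls on Ube2o, Ube2q1 and Ube2q2 rested on small differences. Ube2o, which acts as both E2 and ligase, was at 3939 and 3725 in spermatocytes and 4269.8, 4885 and 5005 in spermatids (log2 fold change 0.30 ± 0.10, SE, limma adjusted p = 0.035). Ube2q1 was at 3017 and 2643 against 3327, 3595 and 3515 (log2 fold change 0.30 ± 0.10, SE, limma adjusted p = 0.030), and its row overlaps that of Il6ra. Ube2q2 was at 350.07 and 262 against 507, 430.1 and 402 (log2 fold change 0.55 ± 0.19, SE, limma adjusted p = 0.032). With equal totals these values turned to -0.35, -0.35 and -0.09, and that of Ube2q1 passed the threshold as lower (limma adjusted p = 0.048). Leaving out spermatocyte replicate 2 or spermatid replicate 2 ended each of these 3 calls (limma adjusted p between 0.064 and 0.21). So did leaving out spermatid replicate 3 for Ube2o (limma adjusted p = 0.0996) and Ube2q1 (0.075), spermatocyte replicate 1 for Ube2o (0.097) and spermatid replicate 1 for Ube2q2 (0.061). Ube2l3, the E2 of HECT and RBR ligases, had overlapping groups at 5502 and 5215 against 5612, 4556 and 4995 (limma adjusted p = 0.49), and a call toward spermatocytes under equal totals (-0.74, limma adjusted p = 3.7e-04). Its row overlaps that of Ydjc. Ube2cbp, the E2-binding protein gene, was at 129 and 121 against 118, 139 and 152 (limma adjusted p = 0.63).

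Ratios within a library do not depend on the scaling. Of 10 pairs of related or functionally linked genes compared in this way, the ratios of the groups did not overlap for 9. This share was not computed over all pairs of genes, and for single genes 85.8% did not overlap. The largest shift was in Ube2d3 to Ube2d1, from log2 ratios of 4.60 and 4.39 in spermatocytes to 9.48, 9.999 and 9.17 in spermatids, 33.2-fold. Ube2v2 to Ube2v1 shifted by 1.22 on the log2 scale, Ube2c to Ube2s by 0.86, Ube2d2b to Ube2d2a by 0.80, Ube2g2 to Ube2g1 by 0.76 and Ube2f to Ube2m by 0.76. The ratio of Ube2q2 to Ube2q1 overlapped between the groups. With 2 samples against 3, the two-sided exact permutation test cannot go below p = 0.20, which each of the 9 pairs reached (0.22 after Benjamini-Hochberg adjustment over the 10 pairs), so none passed a threshold of 0.05. The pairs were chosen with the values known.

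**Figure D4:**
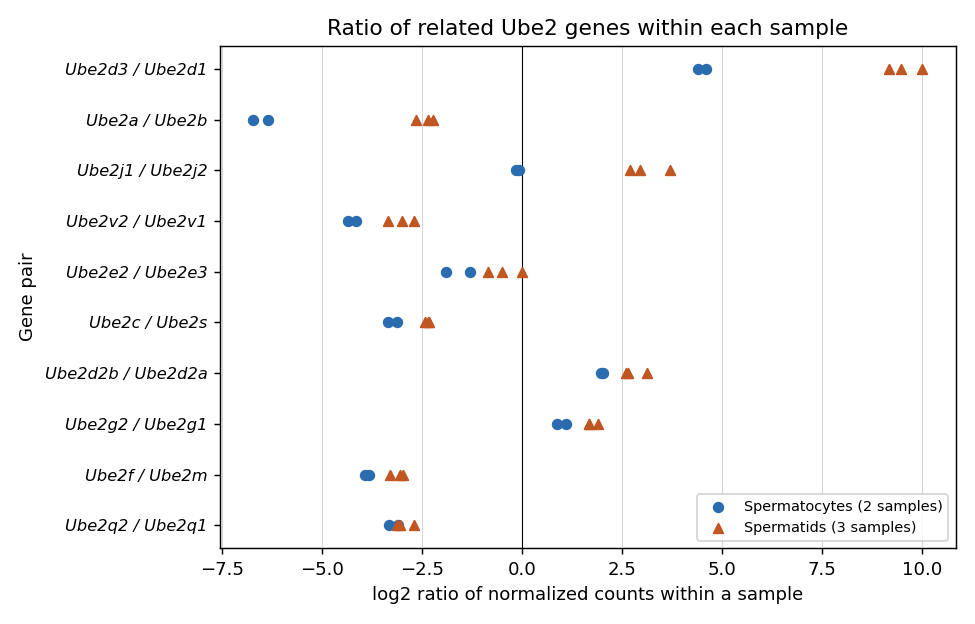
Log2 ratio of the normalized counts of 10 pairs of Ube2 genes within each sample, with circles for spermatocytes and triangles for spermatids. The groups stand apart in 9 pairs, most widely for Ube2d3 to Ube2d1, and overlap for Ube2q2 to Ube2q1.

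Spermatid replicate 1 stood apart from the other spermatid samples for some Ube2 genes, in a share close to that of all genes tested. It was at least 1.5-fold above the mean of replicates 2 and 3 for 5 of the 36 genes, Ube2k (log2 ratio 1.05), Ube2j1 (0.88), Ube2r2 (0.85), Ube2w (0.79) and Ube2n (0.75), a share of 13.9% against 11.8% of all genes tested. The spermatid markers were higher in that sample for 11 of 13 genes, with a median log2 ratio of 1.02, and their summed normalized counts were 2327730 there and 942243 and 893823 in replicates 2 and 3. The spermatocyte markers were higher in that sample too, for 10 of 10 genes, with a median log2 ratio of 0.37. Over all genes tested the median was 0.008, and the share of all genes higher in that sample was not computed. Without replicate 1 the log2 fold changes were 2.38 for Ube2k, 2.34 for Ube2j1, 2.05 for Ube2n and 0.49 for Ube2w, all still called by limma (adjusted p at most 0.0022). Ube2a, Ube2dnl1 and Ube2dnl2 did not share this pattern, with log2 ratios of 0.03, -0.21 and 0.08.

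**Figure D5:**
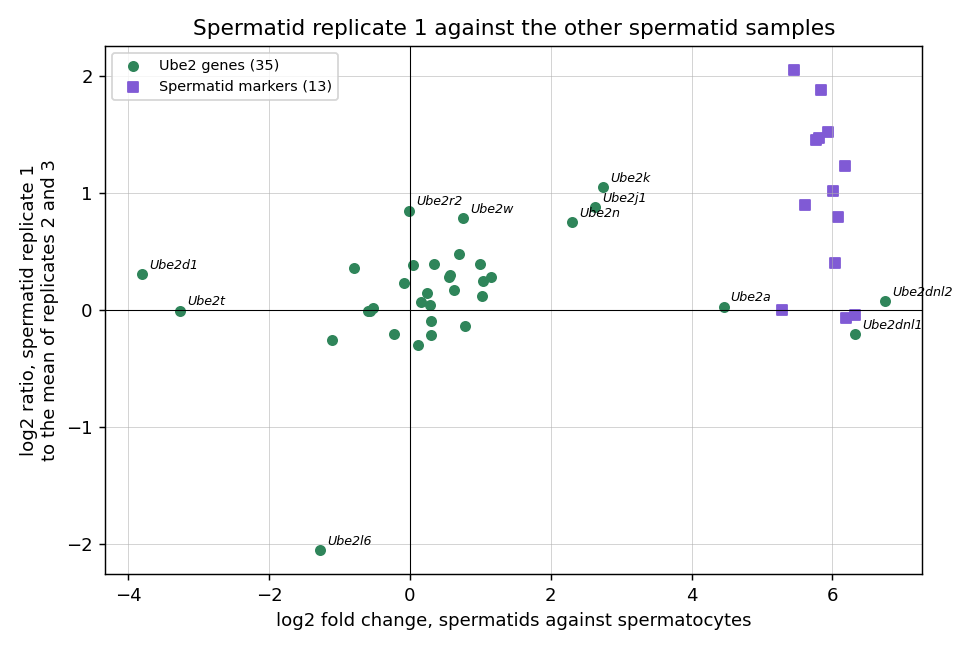
Log2 ratio of spermatid replicate 1 to the mean of replicates 2 and 3 (vertical axis) against the log2 fold change between the cell types (horizontal axis), for 35 of the 36 tested Ube2 genes (circles) and 13 spermatid markers (squares). Ube2k, Ube2j1, Ube2r2, Ube2w and Ube2n lie between 0.75 and 1.05, and Ube2a, Ube2dnl1 and Ube2dnl2 lie near 0.

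The genes before and after the E2 step went both ways, as did all genes tested (40.6% higher and 36.5% lower). Of 10 tested E1 enzyme genes, 4 were higher and 5 lower in spermatids. The X-linked Uba1, which activates ubiquitin itself, rose from 1651 and 2335 normalized counts to 24668, 25742 and 21502, a log2 fold change of 3.60 ± 0.16 (SE, limma adjusted p = 2.8e-06) and of 2.96 with equal totals. Uba2, a subunit of the SUMO E1, fell from 13969 and 12906 to 9843, 9133 and 9019 (log2 fold change -0.53 ± 0.09, SE, limma adjusted p = 0.0014). Of 11 tested ubiquitin and ubiquitin-like genes, 3 were higher and 6 lower. The polyubiquitin gene Ubb rose by 0.41 ± 0.10 (SE, limma adjusted p = 0.0070) as deposited, and equal totals turned this to a call of -0.24.

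Among genes with the E2 fold under other names, 2 of 8 were higher and 2 lower, beside 40.6% and 36.5% of all genes tested. Cdc34, the paralog of Ube2r2, rose from 5368 and 5102 to 23842, 15562 and 14114, a log2 fold change of 1.73 ± 0.22 (SE, limma adjusted p = 3.2e-04), and like Ube2k it was highest in spermatid replicate 1. Birc6, a giant enzyme with an E2 domain, was at 6585 and 7349.6 against 7648, 7478 and 7535 (limma adjusted p = 0.26), and equal totals gave a call toward spermatocytes (-0.53).

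Ligases that use these enzymes were counted by class, as deposited, beside 40.6% higher and 36.5% lower over all genes tested. RAD6 partners had 2 of 7 higher and 4 lower, ligases of signalling chains 1 of 5 and 4, the anaphase-promoting complex 4 of 16 and 7, and ligases of the endoplasmic reticulum 4 of 10 and 3. HECT ligases had 11 of 24 higher and 5 lower, RBR ligases 8 of 14 and 4, SUMO ligases 4 of 9 and 3, and NEDD8 ligases 4 of 7 and 3. List medians ran from -1.47 for the ligases of signalling chains to 0.88 for the RBR ligases, beside 0.07 for all genes. With equal totals the RAD6 partners had 0 higher and 4 lower. The HECT ligases then had 7 and 15, the ligases of the endoplasmic reticulum had 2 and 5 and the RBR ligases 5 and 6. The balance of these 3 turned, as did that over all genes. Over all genes 52.6% of the calls were higher as deposited and 36.8% with equal totals.

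The most abundant ligase genes are given by class. Rnf40, a RAD6 partner for histone H2B, rose by 0.46 ± 0.09 (SE) and its cofactor gene Wac by 0.76 ± 0.12 (SE) as deposited, and with equal totals these values were -0.19 and 0.12 (limma adjusted p = 0.18 and 0.24). Rnf168, which extends damage signals on histones with Ube2n, rose by 1.30 ± 0.09 (SE), and the checkpoint ligase gene Chfr fell by 1.62 on the log2 scale. Fzr1, an activator of the anaphase-promoting complex, rose by 1.13 ± 0.10 (SE), and Cdc20, its other activator, fell by 0.93. Rnf139, a ligase of the endoplasmic reticulum, rose from 16619 and 14926 to 116635, 78392 and 74523. Pias1, a SUMO ligase gene, rose by 3.06 ± 0.09 (SE) and Pias2 by 1.05 ± 0.09 (SE). Dcun1d4, a NEDD8 ligase gene, rose by 3.40 ± 0.13 (SE), and Rnf7, a RING partner of cullins, fell by 0.76. The RBR ligase genes Rnf19b and Rnf19a rose by 1.20 ± 0.10 and 1.60 ± 0.20 (SE). Of the HECT genes, Trip12 rose by 0.32 ± 0.11 (SE) as deposited, which equal totals turned to a call of -0.33.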

How the data were processed

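RNA of spermatocytes and spermatids, separated by sedimentation, was sequenced with a stranded mRNA kit, per the labels' protocols. The authors deposited 1 normalized signal per gene and sample. It was taken as a count divided by a DESeq size factor, since the submitters' processing notes list DESeq and the values are whole multiples of a step in each library. The notes also list STAR 2.4.0, SAMtools, Picard and FastQC without roles, and positions are in mm10, per the file headers. No source used here gives the counting program, its strand setting or its handling of multiply matching reads, so genes that overlap cannot be told apart: 21 of the 37 Ube2 rows overlap another row, 9 of them a named one.

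Cell type labels gave the groups. Replicate numbers follow accession order and pair no samples. Genes with a mean of at least 10 were tested with limma 3.58.1 (R 4.3.3) on log2(value + 1), eBayes with trend, two-sided, Benjamini-Hochberg over all 28370 genes, and the fit was tested on simulated data. Alternatives were a pseudocount of 8, no filter, a mean of at least 100, TMM factors, equal library totals and leaving out each sample. Leaving out a spermatocyte sample leaves 1, which is assumed to vary like the spermatids. Lengths, exons and shared runs came from GENCODE vM21, promoters from RefSeq. Named genes were every Ube2 row and the 2 members of each pathway list with the highest mean, and the marker Id4 was named for its weight in a sum. A few genes that this rule names are counted but not reported here by name. The members, lists and pairs were chosen with earlier results of these data known. Tables were made with pandas 2.3.3, scipy 1.17.1 and numpy 2.4.6 under Python 3.11.15 and plotted with matplotlib 3.10.9. Depth limits the precision of low genes, and counts without molecular identifiers are not independent molecules.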

Additional observations from a re-analysis of the deposited data

How the results depend on the processing

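The scaling had the largest effect among the alternatives tried. With equal library totals, which moved the median log2 fold change of all genes from 0.07 to -0.65, 10 Ube2 genes were called higher and 17 lower in spermatids, against 19 and 7 as deposited, so 37.0% of the family's calls were higher, beside 36.8% over all genes (73.1% and 52.6% as deposited). Under it 11 log2 fold changes changed sign: Ube2e2 (-0.60), Ube2cbp (-0.53), Ube2s (-0.48), Ube2g1 (-0.41), Ube2m (-0.36), Ube2o (-0.35), Ube2q1 (-0.35), Ube2b (-0.30), Ube2q2 (-0.093), Ube2d2b (-0.076) and Ube2u (-0.023). With TMM factors Ube2r2 changed sign (0.0035). Leaving out 1 sample gave 13 to 18 genes higher and 6 to 7 lower. Over these fits Ube2r2 ran from -0.30 to 0.19 and Ube2e2 from -0.11 to 0.28, and neither was called as deposited. Of the 36 genes tested, 17 had the same direction and side of the threshold under every alternative in which they were tested (Ube2d1 and Ube2l6 fall under a mean of 100), among them Ube2a, Ube2dnl1, Ube2dnl2, Ube2j1, Ube2k, Ube2n, Ube2t and Ube2d1. The planned edgeR and DESeq2 alternatives were not run: the rule applied for accepting values as recovered reads takes no step as near 1 as that of spermatid replicate 2 (0.991), although its values are whole multiples of that step. No paired analysis was possible because the labels give no replicate numbers shared between the groups. With 2 and 3 samples, small changes rest on little replication.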
